A study of Mus musculus with 4 samples.

Results

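The 32 genes described here encode the protein folding machinery of the endoplasmic reticulum (ER) and the stress response that controls it. They were taken from the table of the whole array by name: a probe set was used where the platform annotation gives it exactly 1 of the 32 symbols, and a gene with several such probe sets was represented by the brightest one over the 4 arrays. All 32 had at least 1 probe set of their own, out of 12393 genes that had one on the array. The rule uses no measured difference, although the list was drawn up with earlier results of these data known. The samples were small intestine from 4 mice, each 1 month old, 1 array per mouse. The null mice, 1 male and 1 female, had the genotype loxP/- for HNF4 plus villin cre, a transgene active in intestinal epithelium. The female control was loxP/+ and had villin cre as well. The male control was loxP/- but had no cre. A loxP allele was therefore present in every animal, cre in 3 of the 4 and a minus allele in 3 of the 4, and the controls differed from each other in sex, cre and the other allele at once. The labels do not say which HNF4 gene was targeted or which stretch of intestine was taken.

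Secreted and membrane proteins enter the ER through the translocon, are folded by chaperones and disulfide isomerases, and are returned to the cytosol for degradation when folding fails. When unfolded protein accumulates, 3 sensors in the ER membrane respond: IRE1 (Ern1) splices the Xbp1 transcript, ATF6 is cleaved to release a transcription factor, and PERK (Eif2ak3) phosphorylates the initiation factor eIF2, which slows translation in general and favours that of ATF4. XBP1 and ATF6 are known to raise chaperone and degradation genes through ER stress response elements in their promoters, whereas ATF4 acts on amino acid and apoptosis genes together with CHOP (Ddit3). In the intestine the pathway is best known from goblet, Paneth and plasma cells, which secrete large amounts of protein.

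The arrays correlated at 0.927 to 0.963 with each other, and the male null had the lowest median of the deposited intensities (43.2 against 49.5 to 53.3) and the most values below 0 (2.46% against 1.42% to 1.6%). Levels below are intensities after quantile normalization, and differences are null minus control on the scale of log2(intensity + 16), tested with limma over 15838 probe sets. The enterocyte transcripts Apoa1 and Fabp1 were bright on all 4 arrays, at 10127.9 or more and at 5562.8 or more. All 4 Hnf4a probe sets had differences above 0, from 0.08 to 0.32, so the array does not show loss of the transcript, and whether the probes lie in the deleted part is not given in the sources used here. As a mark of what an unexpressed gene can read, 6 probe sets of the Y-linked genes Kdm5d, Uty and Eif2s3y gave at most 31.2 in the females.

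The promoters of some of these genes carry the letters of elements through which the response is known to act. They are shown because the stress response divides into an ERSE branch and an ATF4 branch. Promoters came from RefSeq on GRCm38.p6, from 250 bases before to 50 bases after each annotated start, and 29 of the 32 genes matched. Both strands were searched for ERSE (CCAAT and CCACG separated by 9 bases), ERSE-II (ATTGG and CCACG separated by 1 base), UPRE (TGACGTGG) and the ATF4 element (TGATG and AA separated by 1 base). Sites of different elements did not overlap (0 pairs). ERSE was found in 8 of the 29 genes (27.6%), against 0.119% of all 32851 promoters in the table, and the ATF4 element in 5 (17.2%) against 3.97%. ERSE-II was found in Dnajb11 and Herpud1, against 0.0365% of promoters, and UPRE in 0 of the 29, against 0.676%. No ERSE, ERSE-II or ATF4 element was found in 15 of the 29. A match describes the letters of the window and is not evidence of binding. The genes were listed for this response, so shares above those of all promoters are not an independent finding. The ERSE sites are printed 5′ to 3′ on the gene's strand with 9 bases on each side, the element in capitals, and where the element lies on the opposite strand it reads from CGTGG to ATTGG.
Hspa5, chr2:34772016-34772052, plus strand: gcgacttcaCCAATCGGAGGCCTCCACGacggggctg
Hsp90b1, chr10:86705629-86705665, minus strand: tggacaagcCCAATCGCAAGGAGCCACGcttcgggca
Hsp90b1, chr10:86705524-86705560, minus strand: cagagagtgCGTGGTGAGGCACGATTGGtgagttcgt
Calr, chr8:84847066-84847102, minus strand: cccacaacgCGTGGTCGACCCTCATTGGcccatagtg
Canx, chr11:50325791-50325827, minus strand: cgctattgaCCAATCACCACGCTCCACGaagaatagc
Pdia6, chr12:17266482-17266518, plus strand: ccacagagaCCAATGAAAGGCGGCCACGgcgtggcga
Dnajc3, chr14:118937818-118937854, plus strand: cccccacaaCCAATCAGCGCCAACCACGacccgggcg
Creld2, chr15:88819511-88819547, plus strand: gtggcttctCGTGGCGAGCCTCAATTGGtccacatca
Syvn1, chr19:6046523-6046559, plus strand: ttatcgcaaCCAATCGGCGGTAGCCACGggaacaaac

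The ATF4 elements, which mark the other branch, are printed in the same way. That of Trib3 begins 14 bases after the annotated start and the others lie before it, from 23 bases (Asns) to 193 bases (Chac1). Read on the gene's strand, those of Chac1, Atf3 and Herpud1 share the 8 letters TTGCATCA.
Chac1, chr2:119351040-119351065, plus strand: tccctgccgTTGCATCActcctgcca
Trib3, chr2:152344030-152344055, minus strand: agctcaggtTTACATCAgccgggcgg
Asns, chr6:7693216-7693241, minus strand: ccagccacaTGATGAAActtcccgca
Atf3, chr1:191183427-191183452, minus strand: ttctcgcacTTGCATCAccaagtccg
Herpud1, chr8:94386308-94386333, plus strand: cacggcgggTTGCATCAgcccgcacc

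The 250 bases before the start are given for 1 gene of each branch, with every element found in capitals. The first is Hspa5, at chr2:34771840-34772089 on the plus strand.
Hspa5: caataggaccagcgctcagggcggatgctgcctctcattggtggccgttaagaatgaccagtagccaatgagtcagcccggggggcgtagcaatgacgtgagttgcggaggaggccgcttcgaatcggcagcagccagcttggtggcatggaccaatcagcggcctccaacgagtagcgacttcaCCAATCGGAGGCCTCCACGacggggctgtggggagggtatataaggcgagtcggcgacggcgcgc
The second is Chac1, at chr2:119350992-119351241 on the plus strand.
Chac1: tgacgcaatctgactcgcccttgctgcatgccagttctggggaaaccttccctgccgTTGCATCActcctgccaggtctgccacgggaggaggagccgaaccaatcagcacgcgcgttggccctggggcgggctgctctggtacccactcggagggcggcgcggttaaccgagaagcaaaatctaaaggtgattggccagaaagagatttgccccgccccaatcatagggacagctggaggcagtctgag

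Null and control intestine were compared to see whether transcripts of ER folding and stress differ when HNF4 is targeted in the epithelium. None of the 32 genes passed the threshold: every one had an adjusted p of 1 in limma. Over all probe sets tested, 2 were called (0.0126%), 1 higher (0.00631%) and 1 lower (0.00631%) in null mice. The 32 differences lay between −0.40 (Pdia4) and 0.80 (Chac1) with a median of 0.00, 15 above 0 and 14 below, and the median over all probe sets tested was −0.01. Taken by sex, the median of the male pair was −0.01 and that of the female pair −0.11. The male and female controls also differed in cre and the other allele, so here and below the pairs are not contrasts by sex alone. By role, 11 of 15 chaperone and isomerase genes were below 0, and the 4 genes downstream of ATF4 and CHOP were above 0. Over all probe sets tested, 51.2% were below 0 and 46.9% above. With 1 probe set per gene, as for the 32, 4654 of 9546 tested genes were below 0 and 4710 above. The count of 11 rests on the female control: without that array 6 of the 15 were below 0. Without either null array Chac1 was too dim to be tested and 2 of the other 3 ATF4 and CHOP targets were above 0. In a bulk tissue sample such as this, fewer cells of a type and less RNA per cell cannot be told apart.

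Without adjustment, 2 of the 32 genes had a p under 0.05 in limma, Chac1 (0.0177) and Trib3 (0.0409), both higher in null mice, against 3.03% of all probe sets tested and 1.31% that were higher. Chac1 passed the brightness filter only through the null arrays, where it is high, so its p and its interval are given as a description and support nothing. With sex as a block these were joined by Dnajb11, so 3 had such a p against 5.08%, and none was called (smallest adjusted p = 0.681, against 0.183% of probe sets called in that fit). Both null animals were above both controls for 7 genes, against 13.5% of all probe sets: Dnajb11, Sdf2l1, Sec61b, Ern1, Atf4, Trib3 and Chac1. Besides Chac1, the place of Ern1 in the test also depends on the null arrays. Its controls read 29.3 and 21.1, around the filter level of 26.2. Neither gene adds support to this count. Both were below for 8 genes, against 16.3%: Hsp90b1, Dnajb9, Dnajc3, Creld2, P4hb, Pdia4, Herpud1 and Atf6. In both pairs 12 genes were lower and 10 were higher, against 25.7% and 22.6% of probe sets. With 2 animals against 2 an exact permutation test of 1 gene cannot go below p = 0.333, so none is given.

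**Figure D1:**
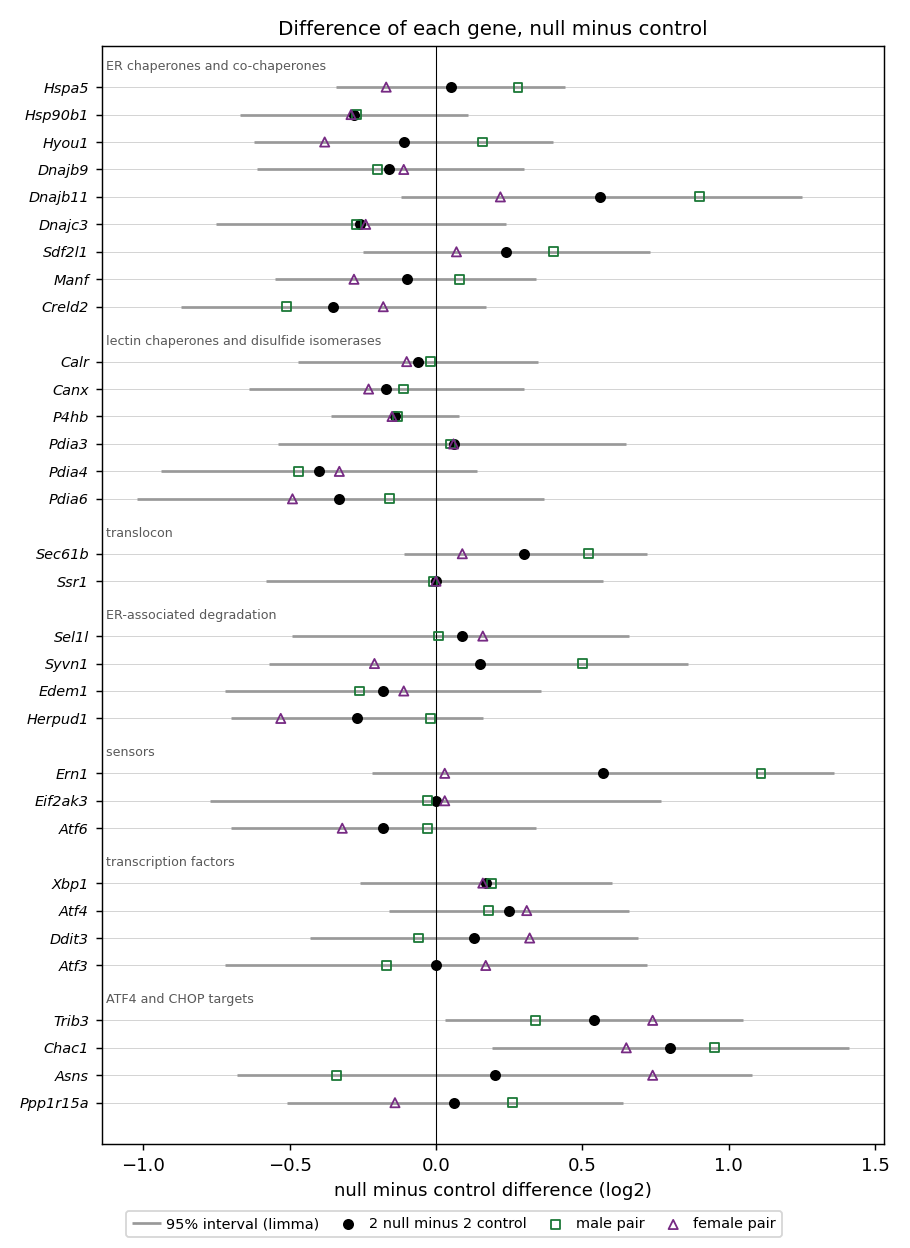
Null minus control difference of each of the 32 genes on the log2 scale, grouped by role, with the difference over all 4 arrays (black points), the 95% interval of the limma fit (grey lines) and the differences within the male pair (squares) and the female pair (triangles). The intervals of Trib3 and Chac1 lie above 0, and those of the other 30 genes include 0.

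Hspa5 encodes BiP, the main HSP70 chaperone of the ER and the gene most used as a readout of the unfolded protein response. It read 1836 (male) and 1821 (female) in null mice against 1512 (male) and 2057 (female) in control mice. Both null animals lay between the controls. The difference was 0.05 (SE 0.16, 95% interval −0.34 to 0.44; male pair 0.28, female pair −0.17). Its second probe set gave −0.16. The interval of that probe set ran from −0.61 to 0.30.

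Hsp90b1, the ER member of the HSP90 family (GRP94), read 989 (male) and 1190.3 (female) in null mice against 1196 (male) and 1461 (female) in control mice. The null animals were the lower of each pair and did not overlap the controls, although the female null and the male control were nearly equal. The difference was −0.28 (SE 0.16), nearly equal by sex (male pair −0.27, female pair −0.29), and −0.30 on the second probe set. The p in limma was 0.133 without a block and 0.0502 with sex as a block, before adjustment.

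The co-chaperones of BiP did not share a direction. Dnajc3 (p58IPK), which also inhibits PERK, was at −0.26 (SE 0.21), and its 4 probe sets that were tested ranged from −0.48 to −0.25. Dnajb9 (ERdj4) was at −0.16 (SE 0.19). Dnajb11 (ERdj3) stood at 0.56 (SE 0.29, 95% interval −0.12 to 1.25), with 1004 (male) and 544 (female) in null mice against 530.1 (male) and 464 (female) in control mice. That value rests on the male null: without this array the Dnajb11 difference was 0.13, and without the female null it was 1.00. Dnajb11 had a single probe set, and its blocked p of 0.0111 in limma was the smallest among the 32 genes in that fit before adjustment. That p does not reflect agreement of the pairs, which were at 0.90 (male) and 0.22 (female). The blocked SE of 0.18 depends on a variance prior shared over probe sets.

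Of the other 4 luminal chaperone genes, 3 were below 0 and Sdf2l1 was above it. Hyou1 (GRP170), a nucleotide exchange factor for BiP, was at −0.11 (SE 0.21) on its brightest probe set and at 0.21 on the other that was tested. Manf, a secreted stress-induced factor, read 778.5 (male) and 822.3 (female) in null mice against 736 (male) and 1005.1 (female) in control mice. The null values lay between the controls, and the difference was −0.10 (SE 0.19). Creld2, a stress-induced ER protein, was at −0.35 (SE 0.22), with 191.4 (male) and 262 (female) in null mice against 279.6 (male) and 300 (female) in control mice. Sdf2l1, a partner of ERdj3, was at 0.24 (SE 0.20).

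The lectin chaperones calreticulin and calnexin hold newly made glycoproteins during folding. Calr was at −0.06 (SE 0.17) and its 3 probe sets lay between −0.14 and −0.01. Canx was at −0.17 (SE 0.20), with −0.37 and −0.39 on 2 dimmer probe sets. Of the disulfide isomerases, P4hb (PDI) had the narrowest interval of the 32 genes, at −0.14 (SE 0.09, 95% interval −0.36 to 0.08). It read 3025 (male) and 3086 (female) in null mice against 3300.2 (male) and 3422 (female) in control mice, so the groups did not overlap, and the pairs gave −0.13 and −0.15. Pdia3 (ERp57), which works with calreticulin and calnexin, was at 0.06 (SE 0.25). Its spread ran between the sexes instead, with males at 736 and 709 and females at 1079.5 and 1034.

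Pdia6 (P5) was at −0.33 (SE 0.29) and Pdia4 (ERp72) at −0.40 (SE 0.23). Pdia4 read 88.5 (male) and 113.6 (female) in null mice against 129.1 (male) and 146.5 (female) in control mice, so the null animals were lower without overlap. Its second probe set disagreed, at 0.42 (male pair 0.90, female pair −0.05). With all probe sets of a gene averaged, the Pdia4 difference was 0.01.

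For the translocon, Sec61b, a subunit of the channel itself, was at 0.30 (SE 0.17), with 816.5 (male) and 656.4 (female) in null mice against 565.7 (male) and 615.5 (female) in control mice. Both null animals were above both controls, and the male pair gave 0.52 against 0.09 in the female pair. Ssr1, a subunit of the associated TRAP complex, was at 0.00 (SE 0.24), with −0.31 and −0.45 on 2 dimmer probe sets.

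Among genes of ER-associated degradation, Sel1l and Syvn1 encode the scaffold and the ubiquitin ligase (HRD1) of the main exit complex. Sel1l was at 0.09 (SE 0.24) on its brightest probe set and at −0.48 on the second, where the male null read 26 against 80.8 to 118 on the other 3 arrays. Syvn1 was at 0.15 (SE 0.30; male pair 0.50, female pair −0.21). Edem1, which selects misfolded glycoproteins, was at −0.18 (SE 0.23). Herpud1, a stress-induced organiser of the exit complex, was at −0.27 (SE 0.18) on its brightest probe set and at 0.16 on the other.

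**Figure D2:**
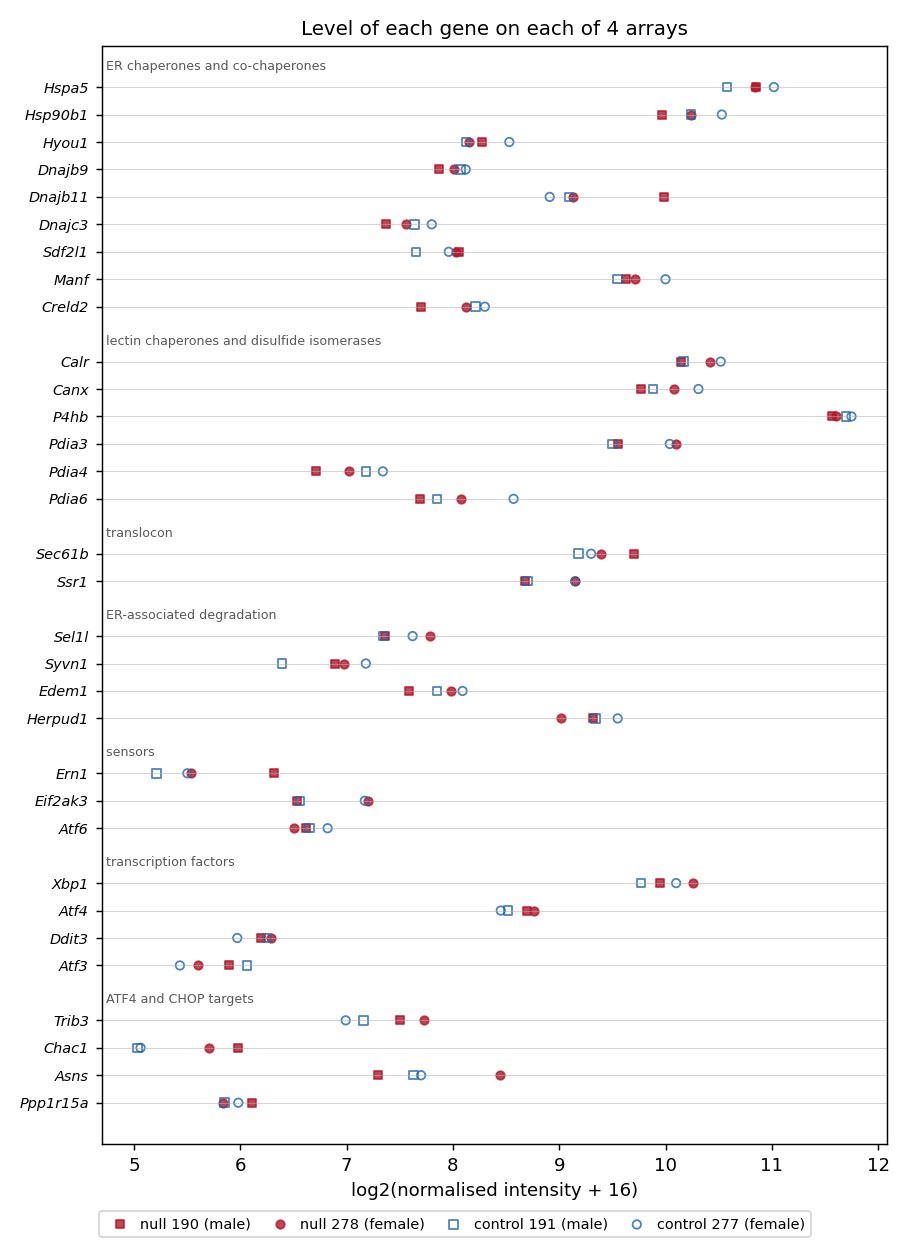
Level of each gene on each array as log2(normalised intensity + 16), with null animals as filled and controls as open symbols, males as squares and females as circles. Levels are to be compared along a row only, since probe sets differ in response. The male null is the lowest of the 4 arrays for 13 of the 32 genes and the female control the highest for 16.

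The sensors were measured on dimmer probe sets. Eif2ak3 (PERK) was at 0.00 (SE 0.32): males read 76.2 and 78.3, females 130.7 and 128. Atf6 was at −0.18 (SE 0.22), with 82.4 (male) and 74.3 (female) in null mice against 84.7 (male) and 97.1 (female) in control mice. Ern1 (IRE1) stood at 0.57 (SE 0.33, 95% interval −0.22 to 1.36). It read 63.8 in the male null and between 21.1 and 30.1 on the other 3 arrays, a level that Y-linked probe sets also reached in females. Without the male null the Ern1 difference was 0.17.

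Xbp1, the factor made after IRE1 splicing, was at 0.17 (SE 0.18) on its brightest probe set, with 975 (male) and 1209 (female) in null mice against 855 (male) and 1084 (female) in control mice. The groups overlapped, and its other 3 probe sets gave −0.16, −0.12 and 0.04. The array was not used to tell spliced from unspliced Xbp1. Averaged over its probe sets, the Xbp1 difference was −0.01.

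The factors of the PERK branch were at or slightly above 0. Atf4 read 400 (male) and 418.8 (female) in null mice against 350.5 (male) and 333.8 (female) in control mice. Both null animals were above both controls, and the difference was 0.25 (SE 0.17, 95% interval −0.16 to 0.66; male pair 0.18, female pair 0.31). The dimmer Atf4 probe sets gave 0.21 (male pair −0.09, female pair 0.51) and −0.12 (male pair 0.82, female pair −1.05). The pairs therefore had the same sign on the brightest probe set only. Ddit3 (CHOP), the factor linked to stress-induced apoptosis, was at 0.13 (SE 0.23), with 57.1 (male) and 62.3 (female) in null mice against 60.1 (male) and 46.9 (female) in control mice. Atf3, which ATF4 induces and which also responds quickly to tissue handling, was at 0.00 (SE 0.30), with the males at 43.3 and 50.9 and the females at 32.6 and 27.1.

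Chac1, a glutathione-degrading enzyme and a target of ATF4 and CHOP, was measured on one of the dimmest probe sets. It read 47.0 (male) and 36.1 (female) in null mice against 16.6 (male) and 17.3 (female) in control mice. Both null animals were above both controls by more than they differed from each other. The difference was 0.80 (SE 0.26, 95% interval 0.19 to 1.41; male pair 0.95, female pair 0.65). The controls read no higher than Y-linked probe sets did in females, so they are not shown to lie above background and the size is uncertain: the Chac1 difference was 1.24 with a pseudocount of 1 and 0.38 with 64. It was the highest of the 32 at the pseudocount of 16, and with 64 it was below Dnajb11 (0.53) and Trib3 (0.42).

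Trib3, a pseudokinase induced by ATF4 and CHOP that restrains them in turn, read 165 (male) and 196 (female) in null mice against 127 (male) and 111 (female) in control mice. Both null animals were above both controls. The difference was 0.54 (SE 0.21, 95% interval 0.03 to 1.05; male pair 0.34, female pair 0.74). The second Trib3 probe set was close to 0: it read 87.0 (male) and 84.6 (female) in null mice against 84.3 (male) and 78.6 (female) in control mice, a difference of 0.06. With both probe sets averaged, the Trib3 difference was 0.30, with an unadjusted p in limma of 0.155.

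Asns, asparagine synthetase, which ATF4 induces on amino acid shortage, separated the null animals from each other. It read 141 (male) and 331 (female) in null mice against 182 (male) and 191.4 (female) in control mice. The male null was the lowest and the female null the highest of the 4 arrays. The difference of 0.20 (SE 0.37) therefore joins values of opposite sign (male pair −0.34, female pair 0.74), each at least 0.3 in size, as in 9.26% of all probe sets. The second Asns probe set gave the same order, with 90.3 (male) and 337.5 (female) in null mice against 124.6 (male) and 145.4 (female) in control mice. Ppp1r15a (GADD34), which directs removal of the phosphate from eIF2, was at 0.06 (SE 0.24).

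**Figure D3:**
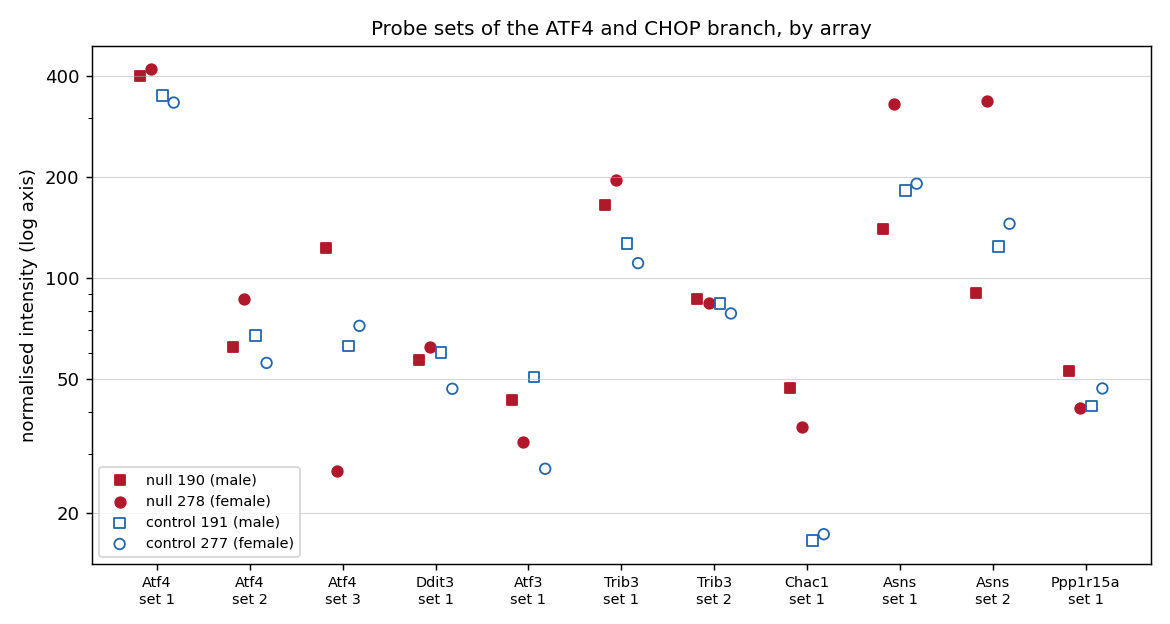
Normalised intensity (log axis) of each tested probe set of Atf4, Ddit3, Atf3, Trib3, Chac1, Asns and Ppp1r15a on each array, with set 1 the brightest of a gene, null animals filled and controls open. The null symbols lie above the control symbols for Chac1 and for set 1 of Trib3 and Atf4, and barely above them for set 2 of Trib3. They lie on both sides of the control symbols for Asns and for set 3 of Atf4.

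Arranged by promoter element, the 8 genes with an ERSE had a median difference of −0.22, from −0.35 (Creld2) to 0.15 (Syvn1), with 6 below 0 and 2 above. Without the female control their median was 0.04, with 3 of 8 below 0. By sex, their median was −0.14 for males and −0.22 for females. The 5 genes with an ATF4 element had a median of 0.20, from −0.27 (Herpud1) to 0.80 (Chac1), with 3 above 0, Atf3 at 0.00 and 1 below. By sex, their median was −0.02 for males and 0.65 for females. Chac1, which passed the brightness filter only through the null arrays, adds no support to this group. Without either null array it was not tested, and of the other 4 genes 2 were above 0 and 2 below. The median was then 0.25 without the male null and 0.02 without the female null. The 15 genes with a promoter but without ERSE, ERSE-II or ATF4 element had a median of 0.06. Genes outside the list that were tested and carry the same letters gave medians of 0.01, both for ERSE (7 genes) and for the ATF4 element (214 genes). These are descriptions of few genes, and the difference between the element groups was not tested.

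**Figure D4:**
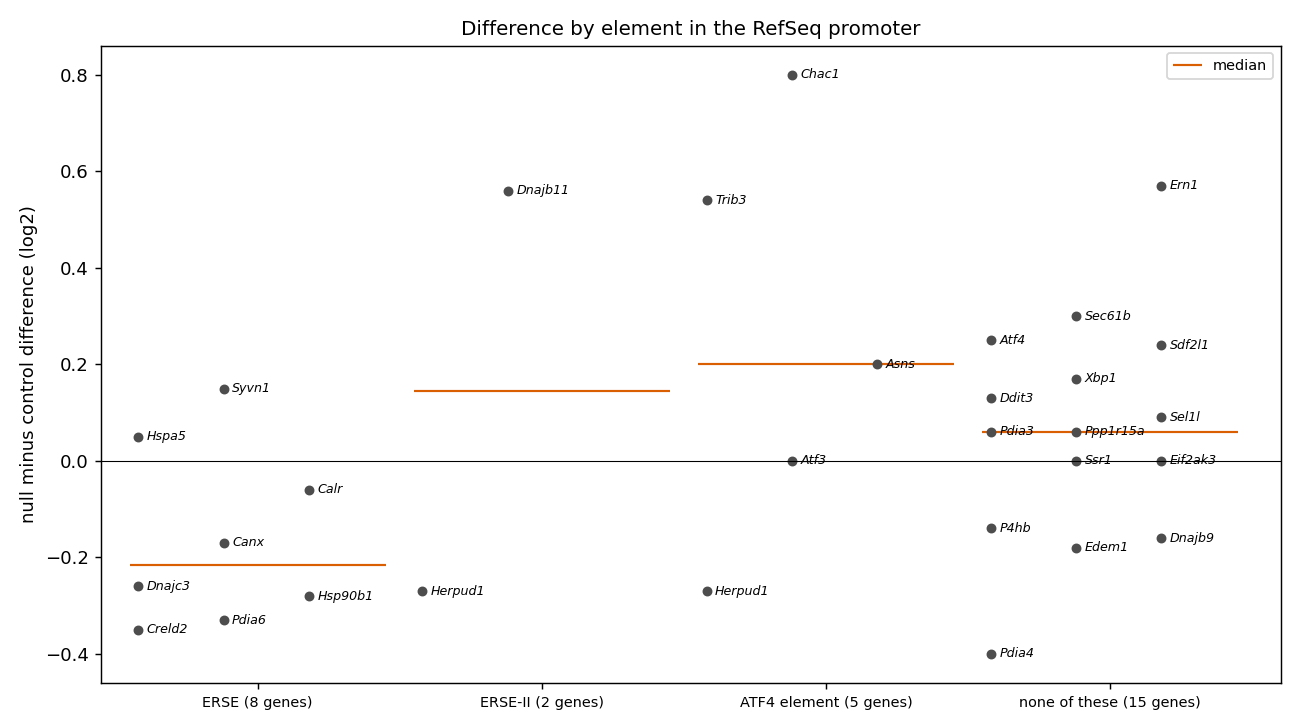
Null minus control difference (log2) of the 29 genes with a RefSeq promoter, by the element found in it, with the median of each group as a line. The ERSE group has 6 of its 8 points below 0, a count that was 3 without the female control, and Herpud1 appears in both the ERSE-II and the ATF4 group. The ATF4 group includes Chac1, which passed the brightness filter only through the null arrays.

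The 32 genes were also compared by sex. Both females were above both males for 12 of the 32 genes, against 22.3% of all probe sets, and below for 1, Atf3, against 17.9%. Counted in either direction, genes that separated the sexes were about as frequent in the list as over all probe sets. The 12 were Manf, Calr, Canx, Pdia3, Pdia6, Ssr1, Sel1l, Syvn1, Edem1, Eif2ak3, Xbp1 and Asns. The female minus male difference of Pdia3 was 0.54 among null mice and 0.53 among control mice, with 0.67 and 0.61 for Eif2ak3 and 0.47 and 0.45 for Ssr1. The animal numbers are adjacent within each sex, so sex cannot be told apart from whatever adjacent numbers stand for. Among the controls, sex cannot be told apart from cre and the other allele either. Genes of the plasma cell list, a cell type rich in ER, went both ways: of 12 tested, 5 were above in both females and 4 below. Above were Cd79a, Cd79b, Ighm, Pou2af1 and Prdm1. Of these, Cd79a, Cd79b, Ighm and Pou2af1 are also B cell genes, so the list does not follow plasma cells alone. Below were Igha, Jchain, Iglv1 and Derl3. The brightest were below: Igha read 6529.6 and 7295.3 in male intestine, 4629.7 and 4438 in female intestine, and Jchain at 2880.9 and 3234 against 1502.3 and 1390.3. Ighm was above, by 0.16 in null mice and by 2.17 in control mice. The part of these cells in the difference between the sexes was not tested.

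**Figure D5:**
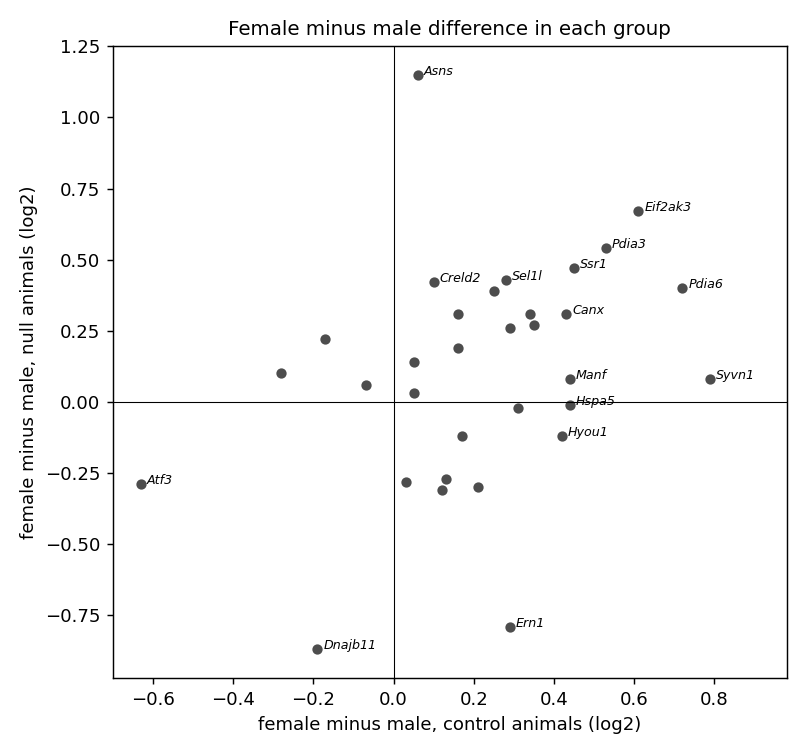
Female minus male difference (log2) of each of the 32 genes in the controls (horizontal) and in the null animals (vertical), with genes labelled where either is at least 0.4 in size. Pdia3, Eif2ak3 and Ssr1 lie near equal values on both axes, while Asns stands apart at 1.15 on the null axis and 0.06 on the control axis.

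Several genes of the list had probe sets that disagreed. Of 64 probe sets for the 32 genes, 57 were bright enough to test. Of the 16 genes with several tested probe sets, 9 had differences of 1 sign and 7 did not. The genes whose probe sets disagreed were Hspa5, Hyou1, Pdia4, Sel1l, Herpud1, Xbp1 and Atf4, so the direction of these genes depends on the probe set read.

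The other genes of the pathway gave no call either. Of 145 further genes listed for the ER, 130 had a probe set of their own and 122 were bright enough to test. Of these, 0 passed the threshold in limma (6 had an unadjusted p under 0.05), 55 were above 0 and 66 below, and the median was −0.03. With sex as a block again 0 passed, and the smallest adjusted p was 0.162 (Agr2).

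Further folding and oxidation genes had a median of 0.08 over 24 members. Agr2, the isomerase of mucin folding in goblet cells and also a member of the goblet marker list, was at 0.62 (SE 0.14), the glucosidase subunit Ganab at −0.52 (SE 0.21), the disulfide reductase Dnajc10 (ERdj5) at 0.41 and Txndc12 at 0.38. Translocon, signal peptidase and glycosylation genes had a median of 0.01 over 23, with the signal peptidase subunit Spcs1 at 0.22, its catalytic partner Sec11c at −0.55, the oligosaccharyltransferase subunit Ostc at −0.30 and the channel subunit Sec61a1 at 0.23.

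Further degradation genes had 12 of 17 members below 0 and a median of −0.11, but 8 of 17 and 0.04 without the female control. The lectin Os9, which delivers glycoproteins to the SEL1L complex, was at −0.58 (SE 0.22), the mannosidase-like Edem2 at −0.32, the ligase Rnf5 at −0.40 and Derl1 at −0.20. ER to Golgi transport had 16 of 20 below 0 and a median of −0.09 (11 of 20 and −0.04 without the male null), with the cargo receptor subunit Mcfd2 at −0.37, Tmed10 at −0.38, the coat subunit Sec23a at −0.29 and Sar1a at −0.33. Further sensors and ER-bound factors had a median of −0.04 over 15, with the ER membrane protein Wfs1 at −0.46, the phosphatase subunit Ppp1r15b at −0.21, Tmbim6 at −0.09 and Atf6b at −0.15.

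The genes of the wider ATF4 amino acid programme did not share a direction. Of 23 members tested, 11 were above 0 and 12 below, with a median of −0.04. Cth, which makes cysteine from cystathionine, was at −0.97 (SE 0.24), with 127 (male) and 113 (female) in null mice against 301 (male) and 206 (female) in control mice. The stress-induced Nupr1 was at 0.72 (SE 0.27), the asparaginyl-tRNA synthetase Nars at −0.58 (SE 0.23) and the mitochondrial folate enzyme Mthfd2 at 0.42 (SE 0.23). These 4 genes were named for the smallest p with the same sign in both pairs. That their null animals did not overlap the controls follows largely from this choice. Of the 23 tested, both null animals were above both controls for 4 and below for 3, against 13.5% and 16.3% of all probe sets. All 4 named genes had an adjusted p of 1 in limma.

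Markers of cells that could carry ER transcripts moved with the groups as follows, and their part in the values above was not tested. Sums are given in order of size within each group, whatever the sex. Of the goblet cell markers, 10 of 12 had a probe set, 9 of 10 were above 0 (median 0.43), and the summed normalised intensity was 22499 and 26038 for null mice, 18777 and 19057 for control mice. The brightest, Zg16 and Tff3, were at 0.16 and 0.20. Paneth cell markers (6 of 12 measured) summed to 14496 and 14865 against 18931 and 18983, with Lyz1 at −0.21 and Itln1 at 0.26. The phospholipase gene Pla2g2a fell by 3.63 (SE 0.26, adjusted p = 0.0277 in limma) and was the 1 marker that passed without a block. The lower sum of the Paneth list rests on it: without Pla2g2a the sums were 14185 and 14308 against 13155 and 14063. With sex as a block Mmp7, the Paneth cell metalloprotease matrilysin, passed as well, at 1.22 (adjusted p = 0.0127 in limma). Plasma cell markers (13 of 18) summed to 7720 (female) and 10816 (male) against 7831 (female) and 11798 (male), with Igha at −0.05 and Jchain at −0.03. Pancreatic acinar markers (14 of 19, with Zg16 in this list too) summed to 8257 and 10240 against 7755 and 8456, and Clps was at 0.32. Enterocyte markers (14 of 18) summed to 44020 and 45160 against 47027 and 47171, with Apoa1 at −0.03 and Fabp2 at −0.14. Of the 14, 10 were below 0 and 4 above (median −0.15). Apoa1 had the same normalized value, 10553.8, in both males and the female control, while deposited values ran from 9864.5 to 11136.9. Its difference is thus partly set by the normalization. Smooth muscle markers (12 of 12) summed to 3450 and 4914 against 3220 and 3588, with Acta2 at 0.07 and Myl9 at 0.47. Immediate early and heat shock genes, a mark of handling, were measured for 27 of 28 and summed to 10324 and 10707 against 9575 and 10124, with Hspa8 at 0.11 and Jund at 0.15. Bright genes such as these weigh most in the sum, which does not show that handling was even. The dimmer Fos read 591.9 (male) and 206.5 (female) in null mice against 371.8 (male) and 383.1 (female) in control mice. In these lists 0 measured markers were at 0 on all 4 arrays.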

How the data were processed

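Biotin-labelled total RNA of each of 4 mice was read on an Affymetrix array, per the labels' protocols. The deposited values are 1 linear intensity per probe set, while the sources used here name neither the summarising software nor any scaling. Because array medians of log2(intensity + 16) differed by 0.23, over the limit of 0.2, intensities were quantile normalized and floored at 0, and log2(intensity + 16) was analysed. The dimmest 30% of 22626 probe sets were left out. Groups were compared with limma 3.58.1 (R 4.3.3), with an intensity trend, without covariates, two-sided, on 2 residual degrees of freedom. Benjamini-Hochberg adjusted p-values covered the 15838 probe sets that remained, and 0.05 was the threshold. The code was tested on simulated data. The genes and lists were chosen with earlier results of these data known. All 32 genes are named. From the other pathway lists, up to 4 genes with the smallest p and the same sign in both pairs are named, and from the marker lists the 2 brightest and any that passed. The values of Igha, Jchain and Ighm by sex, and Mmp7 and Fos, were chosen after they were seen. Alternatives covered scaling, pseudocount, brightness filter, sex as a block, variance prior, probe set averaging and leaving out each array. Promoters were searched in Python 3.11.15.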

Additional observations from a re-analysis of the deposited data

Results flagged for a closer look

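Read on the brightest probe set of each gene, Asns was the 1 gene of the 32 with opposite null minus control differences in the pairs, each at least 0.3 in size. They were −0.34 for males and 0.74 for females. Over all probe sets tested 9.26% met the same rule. Its second probe set gave −0.40 and 1.13. The difference between the pairs was not tested, since each pair holds 1 null animal and 1 control. The pairs also differ in the genotype of the control, so this difference is not one of sex alone. The dimmest probe set of Atf4 met the same rule, at 0.82 for males and −1.05 for females.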

How the results depend on the processing

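No member of the list passed the threshold under any alternative run. The count of members with an unadjusted p under 0.05 in limma was 2, and it was 1 without normalization between arrays, 1 with the dimmest 50% left out and 1 with all probe sets of a gene averaged. It ranged from 0 (without the female control or the male control) to 5 (without the female null) when 1 array was left out. Over all probe sets, 2 were called, 29 with sex as a block and 1 without a trend in the prior. Leaving out 1 array gave 0 to 35 calls, with 35 without the male null, 10 without the female null and 0 without the male control. The lone array left in a group is then assumed to vary like the other group. The median of the 32 differences moved between −0.198 and 0.154. Averaging all probe sets turned the sign of Hspa5 (−0.05), Hyou1 (0.05), Pdia4 (0.01), Sel1l (−0.16) and Xbp1 (−0.01). With 1 array left out, the ranges that crossed 0 were −0.25 to 0.22 for Ssr1, −0.34 to 0.33 for Eif2ak3, −0.31 to 0.32 for Atf3 (all at 0.00 with every array), −0.17 to 0.27 for Hspa5, −0.32 to 0.10 for Hyou1, −0.32 to 0.12 for Manf, −0.24 to 0.11 for Calr, −0.39 to 0.05 for Canx, −0.22 to 0.34 for Pdia3, −0.68 to 0.03 for Pdia6, −0.13 to 0.30 for Sel1l, −0.25 to 0.54 for Syvn1, −0.38 to 0.01 for Edem1, −0.42 to 0.18 for Herpud1, −0.01 to 0.27 for Ddit3, −0.38 to 0.76 for Asns and −0.08 to 0.20 for Ppp1r15a. The brightest probe set of a gene was picked anew in each run, so a value can change with the probe set as well as with the array. The Herpud1 value of 0.18, without the female control, is that of its second probe set. On its first, both null mice (622.9 male, 504.7 female) read below the male control (630.2). For the other changes the cause was not tested. Chac1 stayed between 0.79 and 0.81 without either control and fell under the brightness filter without either null array. Each sex holds 1 null mouse and 1 control, so the fit with sex as a block is the paired analysis. It gave 3 members with an unadjusted p under 0.05 in limma and called none. The blocked fit leaves fewer residual degrees of freedom than the unblocked one, and its SEs depend on the variance prior shared over probe sets. The pairs are different genotype contrasts, since the male control was loxP/- without cre and the female control loxP/+ with cre. Counts by role, element and list without each array were added after seeing the data. The number of arrays limits the precision, and probe sets near the level of Y-linked genes in females (Chac1, Ern1) have an uncertain size.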

Other observations

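The dimmest Eif2ak3 probe set, below the brightness filter and not tested, read 27.4 (male) and 18.7 (female) in null mice against 2.43 (male) and 1.58 (female) in control mice. Its difference was 1.11 on the log2 scale (male pair 1.24, female pair 0.98), but all of these levels lie within the range that Y-linked probe sets reached in females. It was chosen after its values were seen.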
